A study of Mus musculus with 19 samples.

Results

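Crypt RNA from fasted mice that lack neurotensin (NT) was compared with crypt RNA from fasted wild-type mice. The 10 mice were 5 titled NT-/- Fast and 5 titled NT+/+ Fast, of 19 mice sequenced, and each gave 1 library. All were C57BL/6 mice without food for 48 hours with water at hand, and the study's methods give an age of 10 to 16 weeks and the use of both sexes. The 9 other mice (5 NT+/+ and 4 NT-/-) were fed ad libitum, and they entered the fit because the 4 groups shared 1 estimate of the spread. Crypts are the epithelial pits that hold stem cells and dividing progenitors. By the study's methods they were released with EDTA from the larger, proximal part of the small intestine, and libraries were depleted of ribosomal RNA. The study's text describes its NT+/+ and NT-/- mice as carrying Lgr5-EGFP, a reporter knocked in at Lgr5, which the labels of these libraries do not mention. By the methods, ad libitum mice were littermates of the fasted mice, matched for age and sex. The sources used here do not say whether NT+/+ and NT-/- mice were littermates of each other or which part of Nts was removed. In NT+/+ Fast-5 the title and the genotype label disagreed, and it was grouped by title. By the labels, mice 1, 2 and 4 of each group were female, NT+/+ mice 3 and 5 and NT-/- mouse 3 were male, and NT-/- Fast-5 had no sex label.

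NT is a peptide hormone made by enteroendocrine cells of the small intestine and released when fat is eaten. It signals through the G-protein-coupled receptor NTSR1, promotes growth of the mucosa and helps fat absorption, and it is degraded by peptidases on cell surfaces and in the cytosol. In a fast, crypt cells divide less and burn more fatty acids, while Lgr5-positive stem cells at the crypt base sustain later regrowth. The comparison addresses which crypt transcripts differ between mice with and without NT when food is withheld.

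Nts (ENSMUSG00000019890), the gene that encodes NT, lies on the minus strand of chromosome 10 at chr10:102481756-102490486 of GRCm38. The 250 bases before its RefSeq start are given because it was the gene removed and the only gene called. They span chr10:102490419-102490668 on the minus strand of GRCm38.p6, and the capitals mark an AP-1 motif and overlapping TATATA letters. The gene span above, from GENCODE, reaches into this window to position 102490486. The bases nearest the RefSeq start, the TATATA letters among them, therefore lie inside that span.
Nts promoter: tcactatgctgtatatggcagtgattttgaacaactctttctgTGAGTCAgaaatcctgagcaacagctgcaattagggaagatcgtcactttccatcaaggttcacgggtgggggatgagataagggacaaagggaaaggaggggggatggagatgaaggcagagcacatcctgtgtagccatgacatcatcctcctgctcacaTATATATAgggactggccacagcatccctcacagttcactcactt
The AP-1 letters TGAGTCA occurred 1 time on either strand, 207 bases before the start, and 4.46% of 32851 promoter windows of RefSeq held them. TATATA was found in 5.25% of these windows, and TGACGTCA, the cAMP response element, had 0 matches here and occurred in 1.55% of all windows. These matches describe letters in the window only.

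Nts counts were checked first because they test the labels. In the NT+/+ mice numbered 1 to 5, Nts was 5.50, 4.98, 5.45, 5.71 and 5.43 CPM (counts scaled to TMM library size), and in the NT-/- mice it was 0.214, 0.340, 0.520, 0.296 and 0.793 CPM. These values rest on 95, 73, 106, 100 and 97 counts and on 4, 3, 9, 3 and 15 counts. All NT-/- mice were below all NT+/+ mice, and NT+/+ Fast-5, the mouse with disagreeing labels, had 5.43 CPM, within the range of its titled group. Nts fell by 3.56 on the log2 scale (SE 0.32; adjusted p = 1.36e-05, quasi-likelihood test of edgeR, Benjamini-Hochberg adjustment). Counts that remained in NT-/- mice cannot be placed along the gene, since only gene totals were used.

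Library totals of the 10 fasted mice ran from 9059418 to 19889763 counts, with TMM factors of 0.942 to 1.04. Mitochondrial genome genes took 3.28% to 4.30% of the counts in NT+/+ and 3.27% to 5.48% in NT-/- mice. The mean log2 CPM of 5 sex-linked genes was 4.44 in NT-/- Fast-5, which had no sex label. It was 4.27, 4.74 and 4.93 in mice labeled male and -0.279 to -0.038 in mice labeled female. Epithelial Epcam was 905 to 1030 CPM in NT+/+ and 884 to 1100 CPM in NT-/- mice. The fibroblast collagen gene Col1a1 was at most 0.616 CPM in any mouse, and the fat gene Adipoq was at 0 in 9 of 10 libraries. The white blood cell gene Ptprc was higher, at 21.1 to 62.3 CPM in NT+/+ and 32.5 to 52.4 CPM in NT-/- mice. Villus enterocyte genes were well above 0 in the crypt fraction, with Apoa4, an apolipoprotein of fat export, at 805 to 3150 CPM in NT+/+ and 2190 to 3350 CPM in NT-/- mice. In bulk crypt RNA, a smaller number of cells of a type and less RNA in each such cell cannot be told apart.

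Nts was the only gene that passed the test: of 17875 genes, 1 (0.00559%) had an adjusted p under 0.05. At an unadjusted p under 0.05, 835 genes (4.67%) were higher and 799 (4.47%) were lower in NT-/- mice. All 5 NT-/- mice were above all 5 NT+/+ mice for 168 genes (0.94%) and below them for 110 genes (0.615%). Same-numbered mice deviated together, and the NT-/- mouse was higher in all 5 pairs for 1137 genes (6.36%) and lower in all 5 for 1272 genes (7.12%). With the pair number as a block and fasted mice only, 10 of 16552 genes (0.0604%) were called, and with the block in the fit of 19 mice 1 gene was called, with 1150 higher and 1254 lower at an unadjusted p under 0.05. DESeq2's Wald test called 82 genes higher (0.858% of 9556 genes with an adjusted p) and 19 lower (0.199%). The balance of directions depended on scaling: the 835 and 799 genes (51.1% higher) became 731 and 996 (42.3%) with upper quartile scaling, 954 and 678 (58.5%) with DESeq2's size factors in edgeR, and 982 and 657 (59.9%) in DESeq2. The median log2 fold change over all genes was -0.01, with 8458 genes above 0 and 9417 below. Every other gene below is given by its values, and its difference did not pass the test of the whole table in that fit.

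The genes with small unadjusted p values after Nts had mixed roles, and those described first include list members outside the 10 smallest p in each direction (Glud1 and Fanca). Gclm, the modifier subunit of the enzyme that begins glutathione synthesis, was 49.2, 57.6, 57.2, 54.4 and 55 CPM in NT+/+ mice and 60.8, 74.1, 71.4, 74.1 and 81.6 CPM in NT-/- mice. The ranges did not overlap (fold change 0.40 on the log2 scale, SE 0.08, edgeR adjusted p = 0.162). Nit2, an omega-amidase of glutamine breakdown, was 21.8, 20.9, 18.9, 22.8 and 20.9 CPM in NT+/+ mice and 26.5, 24.6, 30.1, 30.4 and 26.3 CPM in NT-/- mice (fold change 0.39 on the log2 scale, SE 0.08, edgeR adjusted p = 0.162), again without overlap. Glud1, glutamate dehydrogenase, was 450.1, 490.3, 592, 575 and 399.8 CPM in NT+/+ mice and 636, 639, 875, 621 and 761 CPM in NT-/- mice, all 5 above the wild-type mice (fold change 0.49 on the log2 scale, SE 0.11, edgeR adjusted p = 0.169).

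Cit, the citron kinase of the cleavage furrow, had the smallest p after Nts among all genes of at least 1 average log2 CPM. It was 62.9, 60.9, 53.6, 55.7 and 65.5 CPM in NT+/+ and 44.4, 47.3, 36.3, 45.1 and 47.1 CPM in NT-/- mice, with all NT-/- mice below the others (fold change -0.44 on the log2 scale, SE 0.08, edgeR adjusted p = 0.162). Pkmyt1, the kinase that holds CDK1 inactive before mitosis, was 19.9, 18.8, 24, 20.6 and 21.3 CPM in NT+/+ and 14.6, 16.3, 16.7, 14.4 and 14.2 CPM in NT-/- mice (fold change -0.46 on the log2 scale, SE 0.10, edgeR adjusted p = 0.162), also without overlap. Fanca, of the complex that repairs DNA crosslinks, was 18.7, 18.4, 22.6, 15.4 and 18.4 CPM in NT+/+ and 12.2, 12.6, 14.8, 14.5 and 12.5 CPM in NT-/- mice (fold change -0.49 on the log2 scale, SE 0.12, edgeR adjusted p = 0.207). Its NT-/- values also lay below every NT+/+ value.

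Further genes with small p and separate ranges on the higher side were Suco, with a log2 fold change of 0.40 (SE 0.08), the general transcription factor gene Gtf2b at 0.38 (SE 0.08), the lysosomal acetyltransferase gene Hgsnat at 0.35 (SE 0.07), the thyroid hormone receptor gene Thrb at 0.46 (SE 0.10) and the pyrophosphate transporter gene Ank at 0.34 (SE 0.07). On the lower side were Smg5, of nonsense-mediated decay, at -0.27 (SE 0.06), the chaperone gene Fkbp11 at -0.84 (SE 0.19), the deubiquitinase gene Josd2 at -0.52 (SE 0.12) and the reductase gene Cyb5r1 at -0.36 (SE 0.09). Their edgeR adjusted p values ran from 0.162 to 0.195. DESeq2, which called more genes, gave an adjusted p of 0.00333 for Cit, 0.00333 for Nit2, 0.0034 for Gclm, 0.0034 for Slc35g1, a solute carrier gene, and 0.0034 for Ahcyl1, a regulator of calcium release.

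**Figure D1:**
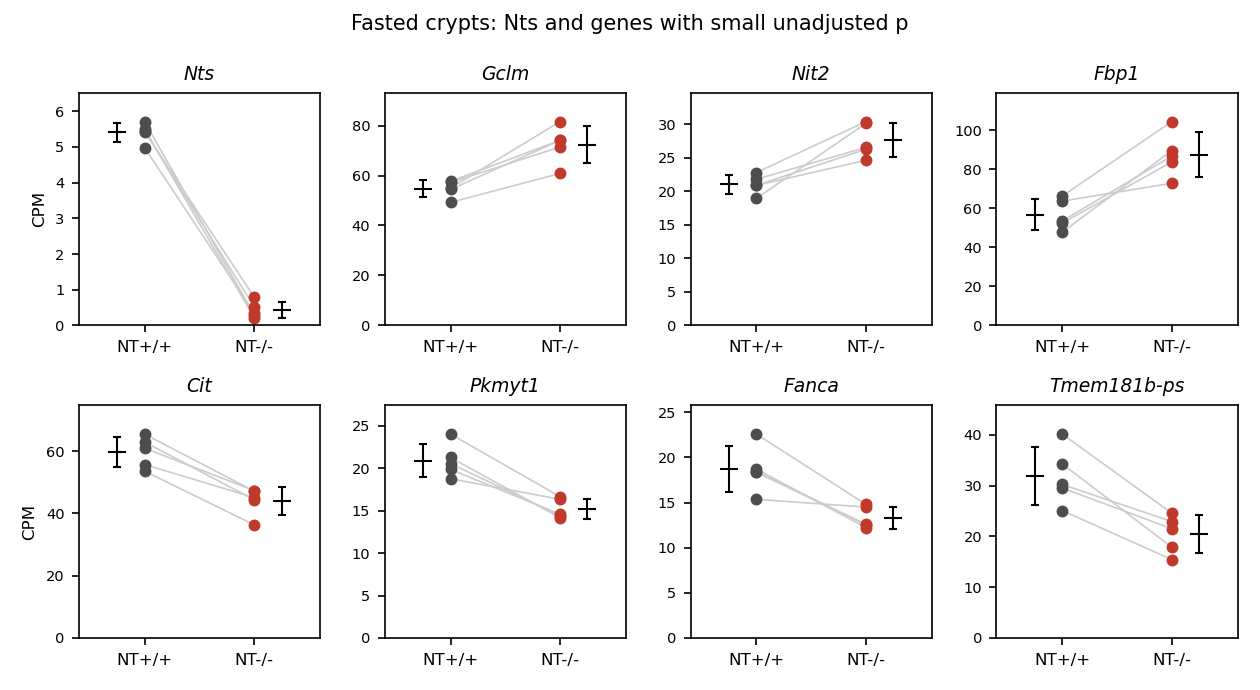
CPM (y axis, from 0) of genes with small p in each fasted mouse, with NT+/+ mice in grey and NT-/- mice in red. Grey lines join mice of the same number and black marks give the mean ± SD (n = 5). In the Nts panel the NT-/- mice reached at most 0.793 CPM and the NT+/+ mice at least 4.98 CPM.

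Around the ligand itself, NTSR1 and NTSR2 were below detection and the peptidases lay on both sides of 0. Ntsr1 and Ntsr2 had 0 counts in all 10 fasted libraries, and 3 counts, the limit that a count of 0 allows, correspond to 0.154 to 0.34 CPM depending on the library. These limits cover counting error only. Sort1, the sorting receptor also called NTSR3, was well counted, at 359.9, 285, 269.9, 246 and 318 CPM in NT+/+ and 355, 259, 231, 240.5 and 295 CPM in NT-/- mice (fold change -0.10 on the log2 scale, SE 0.12, edgeR adjusted p = 0.871), and the groups overlapped. Its relative Sorl1 had a log2 fold change of -0.10 (SE 0.07). Of 12 pathway genes tested, 7 had a log2 fold change above 0. At an unadjusted p under 0.05, 2 were higher and 2, Nts among them, lower, beside 4.67% and 4.47% of all genes.

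Neprilysin (Mme), a brush border peptidase that cleaves NT, was 166, 377, 314, 360.1 and 226 CPM in NT+/+ and 296, 675, 591, 563 and 566 CPM in NT-/- mice. It was higher in the NT-/- mouse of all 5 pairs although the groups overlapped (fold change 0.90 on the log2 scale, SE 0.32, edgeR adjusted p = 0.375; 0.0213 with the pair as a block in fasted mice). Ace, another peptidase of the enterocyte surface, had a log2 fold change of 0.56 (SE 0.26), and Thop1, a cytosolic peptidase that cleaves NT, one of -0.26 (SE 0.11). Mme and Ace are also enterocyte genes, and that group stood higher in the same mice, as given next. Its part in these values was not tested.

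Genes of mature absorptive cells lay mostly above 0. Of 36 enterocyte and brush border genes tested, 35 had a log2 fold change above 0, with a median of 0.43 against -0.01 over all genes. At an unadjusted p under 0.05, 11 were higher and 0 lower, beside 4.67% and 4.47% of all genes. Per mouse, the mean log2 CPM of these genes was 8.27, 9.04, 9.23, 9.16 and 8.56 in NT+/+ mice 1 to 5 and 9.02, 9.48, 9.36, 9.22 and 9.39 in NT-/- mice 1 to 5. The NT-/- mouse was higher in all 5 pairs, and the groups overlapped, as NT+/+ 1 and 5 were low while NT+/+ 2, 3 and 4 lay within the NT-/- range. Without NT+/+ Fast-1 the median was 0.27, and with NT+/+ Fast-5 grouped by its genotype label it was 0.23. Fed mice had a median of 0.08 for the same genes.

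Sucrase-isomaltase (Sis), the brush border enzyme that splits sucrose, illustrated the pattern. It was 2148, 3785, 2345, 3105 and 2435 CPM in NT+/+ and 3535, 4474, 5485, 4278 and 4964 CPM in NT-/- mice (fold change 0.72 on the log2 scale, SE 0.18, edgeR adjusted p = 0.195). The second-highest NT+/+ mouse was below all NT-/- mice, and NT+/+ Fast-2 overlapped with NT-/- Fast-1. Dgat2, which completes triglyceride synthesis, was 70.0, 128, 148, 129.5 and 75.6 CPM in NT+/+ and 128, 209, 172, 176 and 127 CPM in NT-/- mice (fold change 0.56 on the log2 scale, SE 0.22, edgeR adjusted p = 0.418), higher in all 5 pairs.

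The mean level of gluconeogenesis genes was higher in the NT-/- mouse of every pair. Of 15 gluconeogenesis genes tested, 13 had a log2 fold change above 0, the median was 0.28 and 6 were higher at an unadjusted p under 0.05. All NT-/- mice were above all NT+/+ mice for 3 of them, beside 0.94% of all genes. The gluconeogenesis median was 0.43 without NT+/+ Fast-3. Of 21 glycolysis genes, 14 were above 0, the median was 0.14 and 9 were higher at an unadjusted p under 0.05, on a list that also holds the fructose genes Slc2a5 and Khk. That median was 0.05 with the pair number as a block and depended on single mice, at 0.04 without NT+/+ Fast-5, 0.09 without NT+/+ Fast-4 and 0.06 without NT-/- Fast-2.

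Slc2a5, the fructose transporter GLUT5 (chosen after its values were seen, like Khk, G6pc, Sord and Pklr), was 40.6, 78.1, 54.4, 75.3 and 49.8 CPM in NT+/+ and 73.4, 111, 95.6, 114 and 116 CPM in NT-/- mice (fold change 0.77 on the log2 scale, SE 0.18, edgeR adjusted p = 0.193). NT-/- Fast-1 lay below 2 NT+/+ mice, and the other 4 were above all of them. Khk, the kinase that starts fructose use, was 121, 161, 171, 173 and 119 CPM in NT+/+ and 174, 207, 245, 196 and 189 CPM in NT-/- mice, just separate (fold change 0.44 on the log2 scale, SE 0.13, edgeR adjusted p = 0.316). Sord, which makes fructose from sorbitol, had a log2 fold change of 0.50 (SE 0.12) with separate ranges.

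Fbp1, fructose-1,6-bisphosphatase, was 52.4, 63.7, 47.7, 66.3 and 53.5 CPM in NT+/+ and 83.8, 72.8, 89.6, 104 and 86.8 CPM in NT-/- mice, with no overlap (fold change 0.63 on the log2 scale, SE 0.13, edgeR adjusted p = 0.162). Its relative Fbp2 had a log2 fold change of 0.26 (SE 0.07), also without overlap. Slc37a4, which carries glucose 6-phosphate into the endoplasmic reticulum, was 51.2, 61.7, 68.7, 72.9 and 45.3 CPM in NT+/+ and 79.3, 77.7, 105, 80.9 and 83.5 CPM in NT-/- mice (fold change 0.51 on the log2 scale, SE 0.12, edgeR adjusted p = 0.193), and the groups were separate. G6pc, which frees the glucose there, was 27.9, 46, 59.5, 68 and 20.7 CPM in NT+/+ and 58.3, 88.1, 116, 104 and 43.4 CPM in NT-/- mice. Mice varied more in G6pc than the genotypes differed, all 5 pairs went one way, and it was called with the block (fold change 0.88 on the log2 scale, SE 0.36, edgeR adjusted p = 0.452; 0.00481 with the pair as a block in fasted mice).

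Of the glycolysis genes, 7 of 21 were below 0. The pyruvate kinase genes Pklr and Pkm had log2 fold changes of 0.39 (SE 0.10) and 0.42 (SE 0.12), and Pdk2, which restrains pyruvate entry into the mitochondrion, 0.33 (SE 0.09). Sucla2, of the citric acid cycle, was at 0.23 (SE 0.07). All 4 had an edgeR adjusted p of 0.195 or more. Sis and Slc2a5 are also on the enterocyte list, whose part in these values was not tested.

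**Figure D2:**
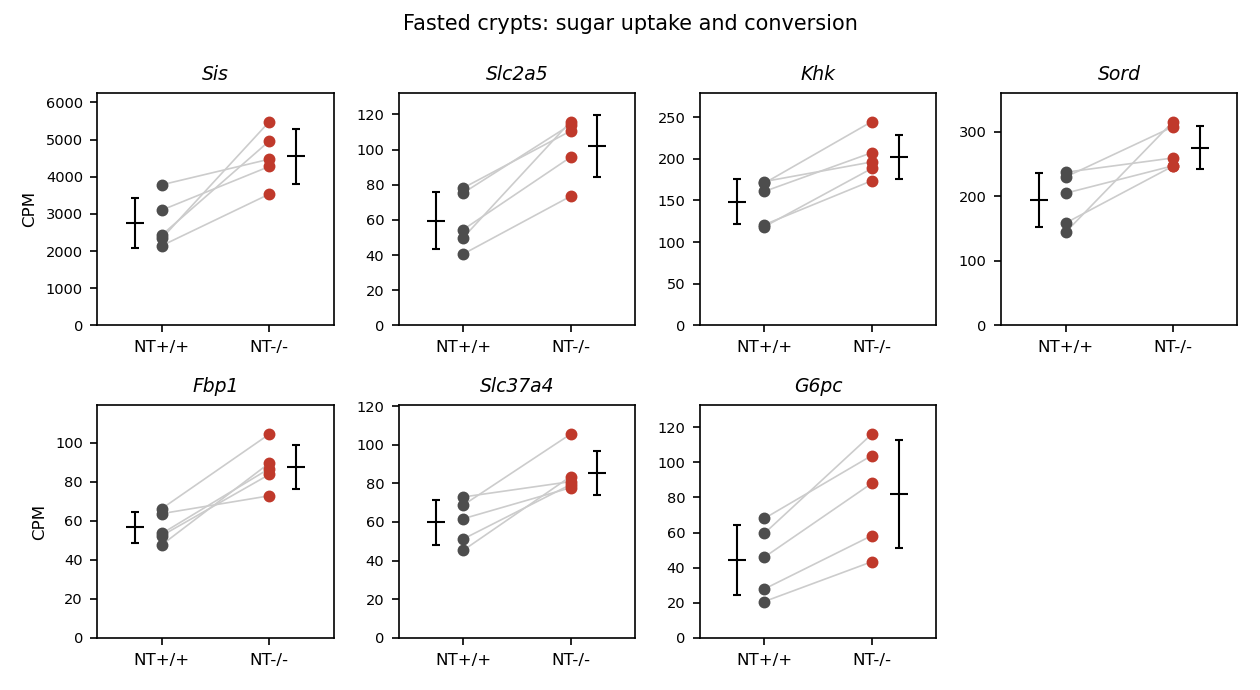
CPM (y axis, from 0) of genes of sugar uptake and conversion in each fasted mouse, with NT+/+ mice in grey and NT-/- mice in red. Grey lines join mice of the same number, and black marks give the mean ± SD (n = 5). Every line slopes upward in each panel, while the group ranges overlap for Slc2a5, Sis and G6pc.

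Genes of fat absorption and of peroxisomes lay mostly above 0, while the fatty acid oxidation gene Cpt1a was near 0. Of 30 fat absorption and chylomicron genes, 27 were above 0 with a median of 0.23, and 6 were higher at an unadjusted p under 0.05, among them Sar1b, which buds chylomicron carriers, at 0.31 (SE 0.10). For 27 PPAR target genes the median was 0.15 with 24 above 0. Peroxisomal genes had 27 of 29 above 0 and a median of 0.14. At an unadjusted p under 0.05, 12 were higher, beside 4.67% of all genes. Mitochondrial fatty acid oxidation had 22 of 26 genes above 0, but a median of only 0.06, 5 higher and 1 lower. That median was 0.10 without NT+/+ Fast-5 or NT-/- Fast-2 and 0.11 without NT-/- Fast-3.

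Phyh, which starts peroxisomal breakdown of phytanic acid, was 108, 132, 153, 158 and 117 CPM in NT+/+ and 168, 178, 166, 164 and 174 CPM in NT-/- mice, with separate ranges (fold change 0.35 on the log2 scale, SE 0.09, edgeR adjusted p = 0.256). Hadh, a dehydrogenase of mitochondrial beta-oxidation, was 434, 464, 466, 483 and 403 CPM in NT+/+ and 561, 527, 518, 525 and 581 CPM in NT-/- mice, also separate (fold change 0.27 on the log2 scale, SE 0.08, edgeR adjusted p = 0.283). Acadm, Acaa2 and the peroxisomal Ehhadh, enzymes of the same pathways, had log2 fold changes of 0.20 (SE 0.07), 0.21 (SE 0.08) and 0.23 (SE 0.09). The peroxisome import genes Pex7 and Pex13 were at 0.25 (SE 0.08) and 0.27 (SE 0.09).

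Cpt1a, the gate for fatty acids into the mitochondrion, was 462, 414, 338, 332 and 472 CPM in NT+/+ and 465, 369, 329, 424 and 437 CPM in NT-/- mice (fold change 0.00 on the log2 scale, SE 0.14, edgeR adjusted p = 0.997). The groups overlapped. Its direction flipped under other settings. Ppard, the PPAR receptor gene measured in the study, was at -0.09 (SE 0.13) and also flipped, and Pparg was at 0.31 (SE 0.14). Lipa, which frees cholesterol and fatty acids in the lysosome, was at 0.63 (SE 0.19), whereas the lipid-making genes Fasn and Lss were at -0.38 (SE 0.12) and -0.28 (SE 0.11).

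All 35 xenobiotic metabolism genes tested had a log2 fold change above 0, with a median of 0.31. At an unadjusted p under 0.05, 7 were higher and 0 lower, beside 4.67% and 4.47% of all genes. For 3 of the 35 genes, all NT-/- mice were above all NT+/+ mice, beside 0.94% of all genes. Ugt2b34, a glucuronosyltransferase, was 329, 357, 298, 309 and 336 CPM in NT+/+ and 391, 416, 409, 396 and 461 CPM in NT-/- mice (fold change 0.35 on the log2 scale, SE 0.08, edgeR adjusted p = 0.195). The cytochrome P450 genes Cyp2j6 and Cyp3a44 had log2 fold changes of 0.51 (SE 0.15) and 1.81 (SE 0.48), the latter from under 1 CPM in NT+/+ mice. The mean log2 CPM of the list was 4.95, 5.43, 5.66, 5.55 and 5.24 in NT+/+ and 5.41, 5.76, 5.80, 5.81 and 5.99 in NT-/- mice, higher in the NT-/- mouse of all 5 pairs. NT+/+ mice 1 and 5 were lowest, as they were for enterocyte genes, whose part in these values was not tested. Fed NT-/- mice also had a positive median for these genes, 0.21. Adh1, an alcohol dehydrogenase of the retinoid list (12 of 16 above 0, median 0.10), was 179, 189.5, 220.4, 222 and 154 CPM in NT+/+ and 232, 295, 334, 301 and 328 CPM in NT-/- mice, again without overlap (fold change 0.63 on the log2 scale, SE 0.16, edgeR adjusted p = 0.231). The retinoid median was 0.16 without NT+/+ Fast-4 and 0.19 without NT+/+ Fast-5.

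Of 33 NRF2 and glutathione genes, 25 were above 0 and the median was 0.12. At an unadjusted p under 0.05, 11 were higher, beside 4.67% of all genes. Ugdh, which makes the sugar for glucuronidation, and Cbr1, a carbonyl reductase, were at 0.36 (SE 0.11) and 0.38 (SE 0.13) beside Gclm. Without NT-/- Fast-5 the median was 0.06. The 13 protein genes of the mitochondrial genome were all above 0, with a median of 0.27, and 1 reached an unadjusted p under 0.05. This was mt-Nd3, a complex I subunit, at 218, 226, 237, 224 and 278 CPM in NT+/+ and 307, 278, 285, 341 and 360.1 CPM in NT-/- mice (fold change 0.41 on the log2 scale, SE 0.13, edgeR adjusted p = 0.335), with separate ranges.

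Genes of cell division were lower together by small amounts. All 42 mitosis genes had a log2 fold change below 0, with a median of -0.25, and 18 were lower at an unadjusted p under 0.05. The count was 41 of 48 for DNA replication (median -0.17, 14 lower), 22 of 26 for DNA repair (median -0.17, 12 lower) and 22 of 27 for cyclins and their kinases (median -0.19, 8 lower). Ribosome biogenesis had 27 of 30 genes below 0, with a median of -0.17 and 5 lower. The mean log2 CPM of the mitosis genes was 5.64, 5.45, 5.12, 5.18 and 5.59 in NT+/+ and 5.20, 5.17, 4.83, 5.34 and 5.32 in NT-/- mice. Of the 5 pairs, 4 were lower in the NT-/- mouse, pair 4 was not, and the groups overlapped. With NT+/+ Fast-5 grouped by its genotype label, the medians were -0.10 for mitosis, -0.09 for DNA replication, -0.08 for DNA repair and -0.11 for cyclins. In female mice only they were -0.21, -0.09, -0.08 and -0.10, and -0.11 for ribosome biogenesis.

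Mki67, which encodes the proliferation antigen Ki67, was 643, 613, 547, 523 and 678 CPM in NT+/+ and 467, 495, 469, 550.5 and 581 CPM in NT-/- mice (fold change -0.23 on the log2 scale, SE 0.09, edgeR adjusted p = 0.401). Only pair 4 was higher in the NT-/- mouse. Plk1, the kinase that drives mitotic entry, was 62.6, 50.8, 47.8, 49.2 and 64.3 CPM in NT+/+ and 50.4, 39.4, 34, 43.3 and 49.5 CPM in NT-/- mice, lower in all 5 pairs but with overlap (fold change -0.34 on the log2 scale, SE 0.11, edgeR adjusted p = 0.344). Mcm5, of the replicative helicase, was 62.2, 49.2, 67.4, 41.3 and 61.5 CPM in NT+/+ and 53.3, 37, 38.7, 38.7 and 45.8 CPM in NT-/- mice, likewise lower in each pair (fold change -0.40 on the log2 scale, SE 0.12, edgeR adjusted p = 0.335).

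Among the other division genes were Espl1, the separase that cuts cohesin, at -0.39 (SE 0.10), Cdk1, the mitotic kinase, at -0.30 (SE 0.09), Uhrf1, which maintains DNA methylation, at -0.34 (SE 0.10), Pold3, a polymerase delta subunit, at -0.25 (SE 0.09), Xrcc1, of single-strand break repair, at -0.27 (SE 0.09) and Nop56, of the ribosomal RNA methylation complex, at -0.36 (SE 0.11). Rbl2, the pocket protein p130 that holds cells in rest, went the other way at 0.24 (SE 0.07), with all NT-/- mice above all NT+/+ mice. In pairs 1, 2, 3 and 5 the NT-/- mouse had the higher mean of enterocyte genes and the lower mean of mitosis genes, and the part of cell makeup was not tested.

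Stem cell genes also lay mostly below 0. Of 22 intestinal stem cell markers, 20 were below 0 and the median was -0.19. At an unadjusted p under 0.05, 4 were lower and 0 higher, beside 4.47% and 4.67% of all genes. Averaged over the 22 markers, log2 CPM was 6.32, 5.88, 5.59, 5.82 and 6.04 in NT+/+ mice and 6.10, 5.74, 5.41, 5.74 and 5.71 in NT-/- mice, lower in the NT-/- mouse of all 5 pairs. The ranges overlapped widely, since pair 1 was high and pair 3 low in both genotypes. Without NT+/+ Fast-1 the median was -0.12. Of 24 Wnt targets and effectors, 19 were below 0, the median was -0.08 and 0 passed an unadjusted p under 0.05 in either direction. That median was -0.02 without NT-/- Fast-4. The mean log2 CPM of the Wnt list was lower in the NT-/- mouse of all 5 pairs (mean pair difference -0.12, SD 0.04), and the groups overlapped.

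Lgr5, the Wnt target that marks crypt base stem cells, was 43.5, 34.5, 21.2, 35.3 and 34.4 CPM in NT+/+ and 36.8, 28.6, 25.3, 29.3 and 32.8 CPM in NT-/- mice (fold change -0.14 on the log2 scale, SE 0.19, edgeR adjusted p = 0.888). Pair 3 was higher in the NT-/- mouse and the other 4 were lower. Olfm4, another stem cell marker, was 1546, 909.5, 999.8, 715 and 1658 CPM in NT+/+ and 1045, 836, 771, 839 and 1065 CPM in NT-/- mice (fold change -0.36 on the log2 scale, SE 0.21, edgeR adjusted p = 0.651), with 2 NT+/+ mice above all others. Ascl2, the transcription factor of stem cell identity, was 10.8, 7.91, 4.53, 9.37 and 8.45 CPM in NT+/+ and 9.34, 6.01, 4.11, 4.83 and 7.34 CPM in NT-/- mice, lower in all 5 pairs (fold change -0.37 on the log2 scale, SE 0.28, edgeR adjusted p = 0.752).

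Myc, the Wnt-driven growth regulator, was 190.2, 128, 38.8, 99.8 and 98.4 CPM in NT+/+ and 120.4, 103, 30.4, 84.2 and 83.7 CPM in NT-/- mice (fold change -0.40 on the log2 scale, SE 0.32, edgeR adjusted p = 0.772). All 5 pairs were lower, and the range within each genotype was wider than any difference within a pair. Msi1, an RNA-binding stem cell protein, was 39.7, 26.7, 28.7, 24 and 32.1 CPM in NT+/+ and 31.7, 21.2, 22, 21.3 and 24.3 CPM in NT-/- mice (fold change -0.32 on the log2 scale, SE 0.14, edgeR adjusted p = 0.503), and Sox9 was 149, 119, 49.3, 93.1 and 99.4 CPM in NT+/+ and 132, 104, 47.1, 91.9 and 91.4 CPM in NT-/- mice (fold change -0.13 on the log2 scale, SE 0.25, edgeR adjusted p = 0.928). Both overlapped, and Sox9, a factor of stem and Paneth cells, changed sign when NT+/+ Fast-1 was left out.

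Other genes on these lists were Tnfrsf19, a Wnt-responsive receptor, at -0.53 (SE 0.25), Ephb3, which positions cells in the crypt, at -0.34 (SE 0.17), Lrig1, a brake on ErbB signaling, at -0.27 (SE 0.12), Cdca7 at -0.31 (SE 0.13), Ccnd1, the G1 cyclin D1, at -0.35 (SE 0.18) and Tcf7, a Wnt transcription factor, at -0.03 (SE 0.11). None had an edgeR adjusted p under 0.455.

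**Figure D3:**
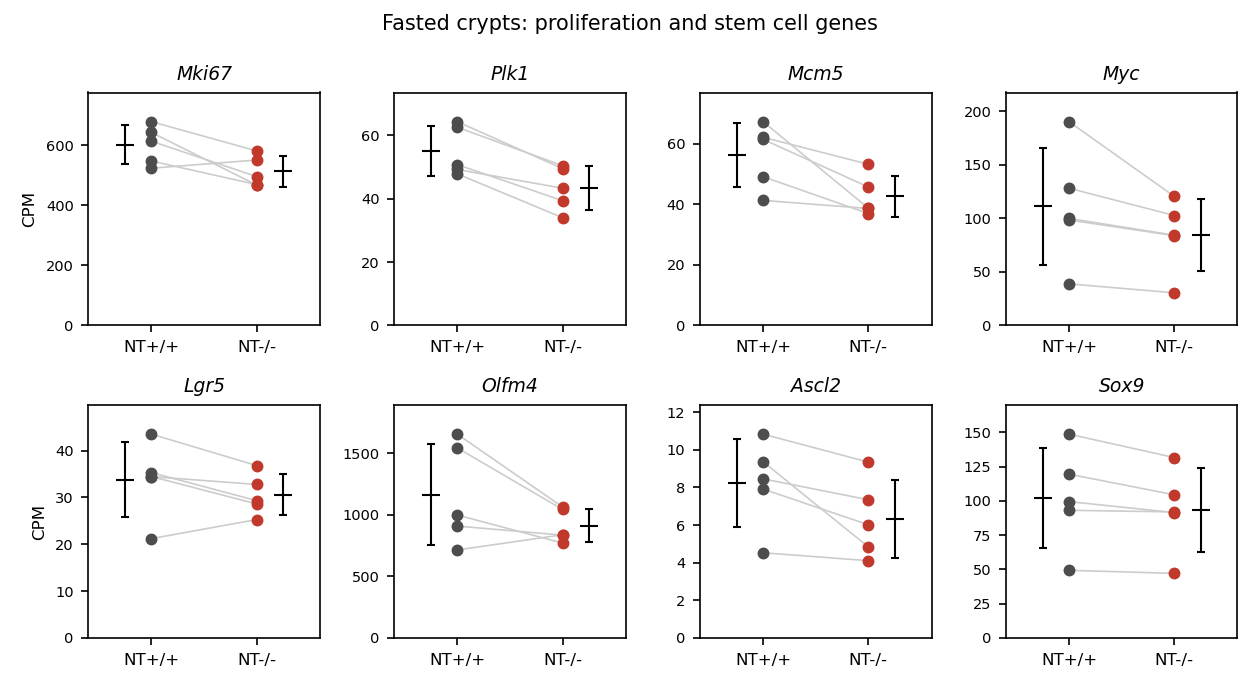
CPM (y axis, from 0) of proliferation and stem cell genes in each fasted mouse, with NT+/+ mice in grey and NT-/- mice in red. Grey lines join same-numbered mice, and black marks give the mean ± SD (n = 5). The ranges overlap in every panel, and the lines of Plk1, Mcm5, Myc, Ascl2 and Sox9 all slope downward.

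Paneth and goblet cell genes were mostly below 0. Of 26 Paneth cell genes 24 were below 0 (median -0.23, 1 lower at an unadjusted p under 0.05), and of 21 goblet cell genes all were (median -0.20, 3 lower). Over all genes, 4.47% were lower at that p. The mean log2 CPM of the lists in NT-/- mice was 9.16, 7.93, 8.20, 7.93 and 8.29 for Paneth and 6.60, 5.98, 5.84, 5.74 and 5.95 for goblet cells, against 8.99, 8.45, 8.64, 8.23 and 8.78 and 6.52, 6.21, 6.28, 6.17 and 6.26 in NT+/+ mice. NT-/- Fast-1 stood above all other mice for both, and the other 4 NT-/- mice were below all NT+/+ mice for goblet genes. Without NT-/- Fast-1 the medians were -0.52 and -0.40. Without NT-/- Fast-4 they were -0.15 and -0.13, and the Paneth median was -0.15 without NT+/+ Fast-1 and -0.14 without NT-/- Fast-2.

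Agr2, a disulfide isomerase needed for mucin folding, was 236, 181, 235, 162 and 234 CPM in NT+/+ and 183, 128, 132, 117 and 141 CPM in NT-/- mice, lower in all 5 pairs (fold change -0.58 on the log2 scale, SE 0.16, edgeR adjusted p = 0.27). Only NT-/- Fast-1 overlapped with the NT+/+ mice. Pla2g2a, the Paneth cell phospholipase, was at -0.59 (SE 0.24), and Ern2 and Sytl2, expressed in goblet cells, were at -0.37 (SE 0.16) and -0.22 (SE 0.10). Among 27 enteroendocrine genes, the lineage that makes NT, the median was -0.03 (-0.08 to 0.06 with each mouse left out), 14 were below 0, and Nts and Gcg, which encodes glucagon-like peptides, were those lower at an unadjusted p under 0.05, Gcg at -0.27 (SE 0.12). Chga, a granule protein of the lineage, was 52.6 to 76.6 CPM in NT+/+ and 61.8 to 84.6 CPM in NT-/- mice. Of 24 tuft cell genes, 19 were above 0 with a median of 0.12, and 0 had an unadjusted p under 0.05. The tuft median was 0.66 without NT+/+ Fast-1, -0.06 without NT-/- Fast-2, and -0.02 without NT+/+ Fast-4 or NT-/- Fast-1, and the other mice left out gave 0 to 0.32.

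Markers of cells other than epithelium were not all near 0. The T cell gene Cd3e was 6.08 to 25.8 CPM in NT+/+ and 11.1 to 19.4 CPM in NT-/- mice. The summed level of 29 lymphocyte genes was 148 to 431 CPM in NT+/+ mice and 239.8 to 405 CPM in NT-/- mice, with a median log2 fold change of 0.19 that ranged from 0.02 without NT+/+ Fast-1 to 0.53 without NT+/+ Fast-4. 0 lymphocyte genes passed an unadjusted p under 0.05. Mcpt1, a mast cell protease, was 6.31, 1.98, 5.71, 1.88 and 2.80 CPM in NT+/+ and 1.17, 1.82, 2.66, 0.493 and 1.11 CPM in NT-/- mice, lower in all 5 pairs (fold change -1.35 on the log2 scale, SE 0.41, edgeR adjusted p = 0.314). Its 2 highest values came from NT+/+ mice 1 and 3. It belongs to a list of 22 myeloid and mast cell genes of which 10 were tested, with 4 above 0, 6 below and a median of -0.12 (-0.16 to 0 with each mouse left out). Mcpt1 was the 1 member with an unadjusted p under 0.05, and the member with the highest value was at 0.90.

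Of 38 interferon-stimulated genes, 33 were above 0, with a median of 0.30. At an unadjusted p under 0.05, 5 were higher, beside 4.67% of all genes. Per mouse, the mean log2 CPM of the list was 2.67, 3.02, 2.91, 2.89 and 2.34 in NT+/+ and 3.54, 3.51, 2.53, 3.00 and 2.48 in NT-/- mice, so NT-/- mice 1 and 2 were high and the other 3 were within the NT+/+ range. The median was 0.13 without NT-/- Fast-1 and 0.19 without NT-/- Fast-2. Ifit3, an antiviral protein gene, was 1.10, 3.34, 3.70, 2.86 and 1.12 CPM in NT+/+ and 7.58, 5.33, 2.54, 3.95 and 2.38 CPM in NT-/- mice (fold change 0.84 on the log2 scale, SE 0.34, edgeR adjusted p = 0.455). Ifih1, the RNA sensor MDA5, was at 0.34 (SE 0.11).

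Stress and timing genes gave smaller groups. Of 23 ATF4 targets, 16 were below 0 and the median was -0.08, with -0.17 without NT-/- Fast-1, -0.13 without NT+/+ Fast-3 and -0.14 without NT+/+ Fast-4. The serine and glycine synthesis genes Phgdh and Shmt2 were at -0.68 (SE 0.19) and -0.48 (SE 0.14). Of 25 unfolded protein response genes, 19 were below 0 (median -0.14), including the chaperone gene Hyou1 at -0.29 (SE 0.14). Clock genes had 13 of 18 above 0 (median 0.13, 4 higher at an unadjusted p under 0.05, beside 4.67% of all genes). The output factors Tef and Hlf were at 0.37 (SE 0.12) and 1.00 (SE 0.34), and the repressor Nr1d2 was at 0.43 (SE 0.13). Without NT+/+ Fast-3 the clock median was 0.23, and without NT-/- Fast-3 it was 0.07. By the study's methods the fast began in the morning, and the hour of tissue collection was not given in the sources used here. Erbb3, of growth factor signaling, was at 0.29 (SE 0.11) with separate ranges, while the 33 ERK and AKT genes had a median of 0.03, which lay between 0.01 and 0.09 with each mouse left out.

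**Figure D4:**
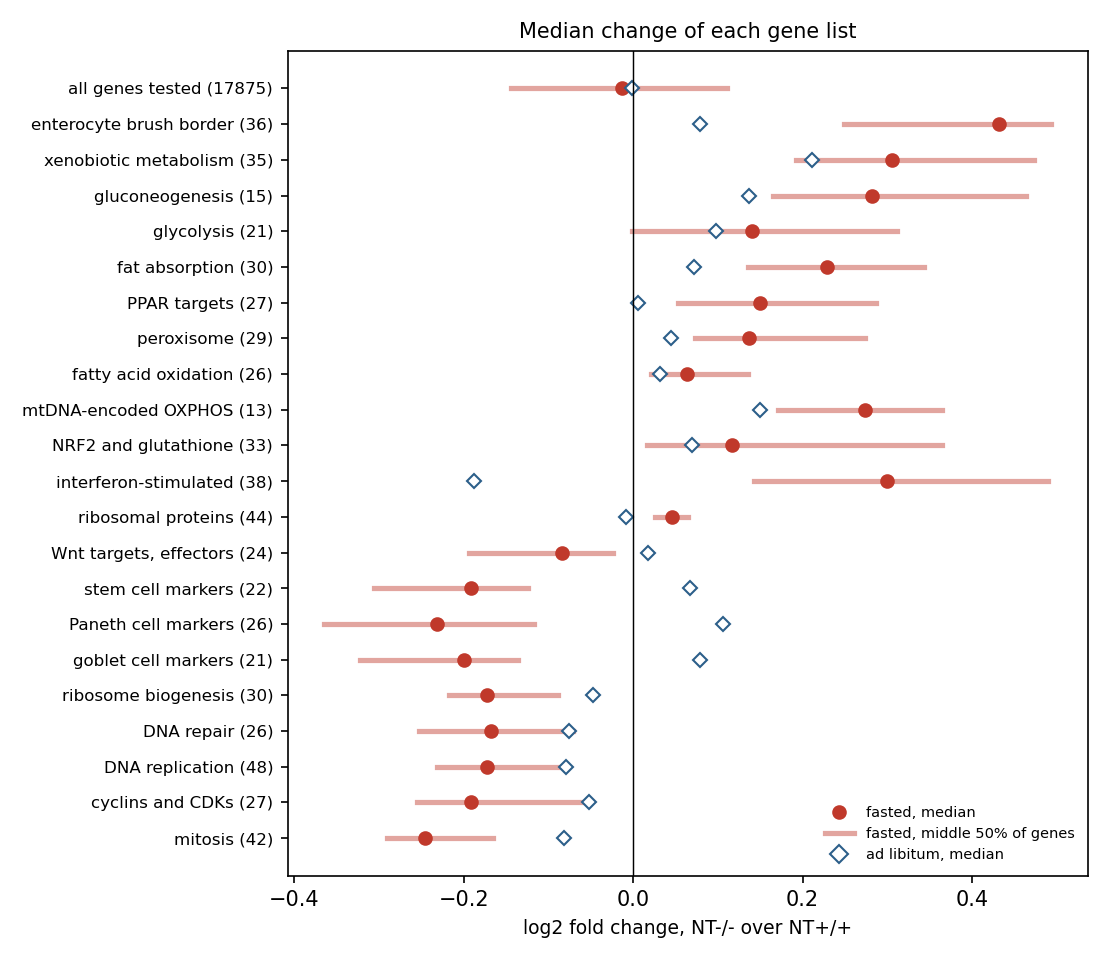
Median log2 fold change (x axis, NT-/- over NT+/+) of each gene list, with the number of genes tested in brackets. Red points are fasted mice, red bars span the middle 50% of the genes, and open blue diamonds are ad libitum mice. Enterocyte genes lie at 0.43 and mitosis genes at -0.25 in fasted mice, and the interferon list lies at 0.30 fasted and -0.19 ad libitum.

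A few genes with small p lie apart from these groups, and were chosen after their values were seen. Nnt, the mitochondrial transhydrogenase that makes NADPH and that differs between C57BL/6 substrains, is listed under 2 overlapping gene IDs, so its counts were also summed. The sum was 134, 120, 68.3, 109 and 120 CPM in NT+/+ and 59, 80.4, 46.9, 55.3 and 53.5 CPM in NT-/- mice. Only NT+/+ Fast-3 was within the NT-/- range. One ID had a log2 fold change of -1.06 (SE 0.21) and separate groups. The substrain of the mice is not given in the sources used here.

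BC035947 was 0.0579, 0.205, 0.103, 0.171 and 0.112 CPM in NT+/+ and 0.160, 3.97, 2.83, 3.26 and 3.70 CPM in NT-/- mice (fold change 4.35 on the log2 scale, SE 0.92, edgeR adjusted p = 0.162). NT-/- Fast-1 was at the NT+/+ level and the other 4 were higher. Around the dynein light chain genes on chromosome 17, Dynlt1b was 38.1, 40.7, 62.9, 45.5 and 48.9 CPM in NT+/+ and 35, 29.2, 34, 33.8 and 35.6 CPM in NT-/- mice, and its neighbor Tmem181b-ps was 25.1, 30.2, 40.1, 29.5 and 34.3 CPM in NT+/+ and 15.4, 22.9, 24.6, 21.5 and 17.9 CPM in NT-/- mice. Both had separate groups (fold change -0.49 on the log2 scale, SE 0.12, edgeR adjusted p = 0.195; fold change -0.64 on the log2 scale, SE 0.14, edgeR adjusted p = 0.162). The copies Dynlt1a, Dynlt1c and Tmem181c-ps were at -0.43 (SE 0.13), -0.45 (SE 0.22) and -1.39 (SE 0.32). These near-identical copies share reads, so how the difference is divided among them is uncertain.

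Genes near the removed locus were examined apart. Within 10 Mb of Nts, 75 genes were tested and 0 others were called. At an unadjusted p under 0.05, 3 were higher and 1 lower, beside 4.67% and 4.47% of all genes. The median log2 fold change near Nts was -0.02. The members with the smallest p were Nudt4, Btg1 and Ntn4, at 0.31 (SE 0.09), 0.25 (SE 0.08) and 0.38 (SE 0.14).

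The same genotypes fed ad libitum shared some of these differences. The comparisons use different mice, though 1 fit and 1 estimate of the spread. At an unadjusted p under 0.05, 73 genes were found in both diets, which is 4.47% of the 1634 genes fasted and 24.4% of the 299 genes fed (1.67% of all genes), and 68 of them had the same direction. Of the 1634 genes, 71.4% had the same sign in fed mice, against 56.5% of all genes. At an unadjusted p under 0.01, 16 genes were found in both and 15 went the same way, all but the pseudogene Gm15429.

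Gpr157, an orphan receptor, was 9.39, 9.55, 8.69, 9.82 and 8.01 CPM in fasted NT+/+ and 12.4, 11, 12.8, 13.7 and 13.7 CPM in fasted NT-/- mice, without overlap, and its log2 fold change was 0.49 fasted and 0.54 fed. The secreted amino acid conjugating enzyme gene Pm20d1 was at 0.74 and 0.74, Arg2, mitochondrial arginase, at 0.43 and 0.45, and Ndrg1 at 0.48 and 0.35. Below 0 in both were Trp53i11, at -0.52 and -0.55, and Efhb, at -0.77 and -0.74. Entpd4 and Entpd4b, near-identical copies that share reads, were at 0.54 and 0.47 and at 0.53 and 0.48. These genes were chosen after their values were seen.

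**Figure D5:**
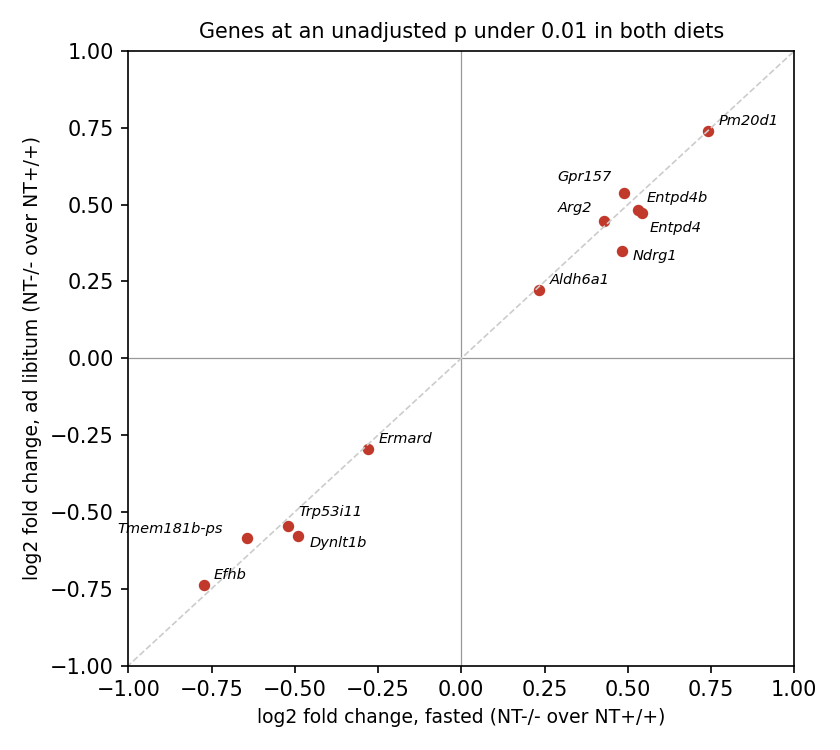
Log2 fold change (NT-/- over NT+/+) in fasted mice (x axis) and ad libitum mice (y axis) of 12 genes with an unadjusted p under 0.01 in both diets. The dashed line marks equal values, and the points, chosen for their p in both diets, lie close to it. Nts, BC035947 and genes without a name are not drawn, among them the pseudogene Gm15429, which was below 0 fasted and above 0 fed.

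The lists were also set beside fed mice. Division genes were below 0 in both diets, with a fed median of -0.08 for mitosis and -0.08 for DNA replication. Stem cell, Paneth and goblet genes had fed medians of 0.07, 0.11 and 0.08, opposite in sign to the fasted medians. Tested gene by gene, the difference between diets in the genotype comparison (an interaction term) had an adjusted p under 0.05 for 0 of 17875 genes in edgeR's quasi-likelihood test, with 485 at an unadjusted p under 0.05 (214 above 0, 1.2%, and 271 below, 1.52%) and 1 called by edgeR's likelihood ratio test. Of the interferon genes, 8 of 38 reached an unadjusted p under 0.05 for that term, all above 0. Among goblet genes 3 of 21 did and among Paneth genes 1 of 26, all below 0. Of the stem cell markers 0 of 22 did.

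With the pair number as a block in the fasted mice, the called genes beside Nts were all higher in NT-/- mice (the genes not described above were chosen after their values were seen). They were G6pc, Mme and Slc2a5, described above, Enpp3, an ectonucleotidase (adjusted p = 0.0285), Slc5a12, a lactate transporter (adjusted p = 0.0427), Nampt, of NAD synthesis (adjusted p = 0.0401), Bbox1, the last enzyme of carnitine synthesis (adjusted p = 0.0401), Ccng2, a cyclin of resting cells (adjusted p = 0.0254), and Paqr9 (adjusted p = 0.0285), all by edgeR's quasi-likelihood test. Without the block their log2 fold changes were 0.99 (SE 0.32), 0.75 (SE 0.47), 0.49 (SE 0.11), 1.32 (SE 0.43), 0.54 (SE 0.20) and 1.90 (SE 0.47). Each was higher in the NT-/- mouse of all 5 pairs, beside 6.36% of all genes. A fit with the pair as a block favors genes whose pairs agree, so this adds no support. Paqr9 was at low levels, 0.290 to 1.008 CPM in NT+/+ and 1.015 to 3.75 CPM in NT-/- mice. Its average log2 CPM was 0.572, under the 1 required of genes named by their p. The sources used here do not explain the shared numbers.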

How the data were processed

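Crypt RNA of 19 mice was measured in ribosomal RNA-depleted libraries sequenced as single-end reads. The authors trimmed reads with Trimmomatic 0.39, mapped them to Ensembl GRCm38 transcripts with RSEM (version and strand setting not given in the sources used here), and deposited expected counts per gene, which are not normalized and divide reads shared by near-identical copies by a model. Without the strand setting, overlapping and antisense genes could not be told apart.

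Expected counts were rounded to whole numbers, and mice were grouped by title. The 17875 genes that passed filterByExpr were tested with edgeR 4.0.16 (R 4.3.3) in 1 fit of the 4 groups with TMM scaling, by the quasi-likelihood test with Benjamini-Hochberg adjustment at 0.05. Adjusted p values below refer to it unless another tool is named. CPM uses TMM library sizes. Log2 CPM uses a prior count of 2. P values measure the spread between mice. Depth of 9059418 to 19889763 counts per fasted mouse set the precision. A variant of this fit, with edgeR's robust option, was run on simulated counts. Those counts gave every gene the same spread and same-numbered mice no shared deviations. They therefore do not check the p values of the fit used here.

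The members and gene lists were chosen with earlier results of these data known. The genes named were the NT pathway, the 10 with the smallest p in each direction, the 5 per direction with the smallest DESeq2 (1.42.0) adjusted p, all at an average log2 CPM of at least 1, up to 3 members of each list, stem cell and fasting genes measured in the study, and up to 3 near Nts. Some genes that met the rule are not reported here, and exceptions are marked. Genes without a name were left out.

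Same-numbered fasted mice deviated together across genes (r from 0.124 to 0.453, mean 0.271, n = 5 pairs, against a mean of -0.0674 in 20 pairs with different numbers), so the number was used as a block in alternatives. Others were other scalings, filters and tests, sex, female mice, the disputed label and leaving out each mouse.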

Additional observations from a re-analysis of the deposited data

Results flagged for a closer look

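In 3 of 80 sets of 5 mice examined, 1 mouse stood far from the other 4, measured as its gap to the nearest mouse over the whole range. Chance gives about 1 such set in 20. Slc37a4 was 105 CPM in NT-/- Fast-3 and 77.7 to 83.5 CPM in the other NT-/- mice. Cit was 36.3 CPM in NT-/- Fast-3 and 44.4 to 47.3 CPM in the others. Dynlt1b was 29.2 CPM in NT-/- Fast-2 and 33.8 to 35.6 CPM in the others. In each case the outlying mouse lay farther from the NT+/+ mice than its group did.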

How the results depend on the processing

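The 1 gene called between fasted genotypes became 0 when every mouse had to have 10 counts, which removes Nts, 101 with DESeq2, 41 with edgeR's likelihood ratio test, 10 with the replicate block in fasted mice only, and 0 with NT+/+ Fast-5 grouped by its genotype label. It was 1 to 4 with each mouse left out in turn. The 4 came without NT-/- Fast-1, with Gclm, Suco and BC035947 called beside Nts. Genes higher at an unadjusted p under 0.05 numbered 1276 with the block by file number and 352 in female mice only. Those lower numbered 1254 with the block by title, 1361 by file number, 525 with fasted mice only, 345 in female mice only, and 505 with NT+/+ Fast-5 regrouped. The interaction had 1 call in the likelihood ratio test. Nts had a log2 fold change of -2 (edgeR adjusted p = 0.781) with NT+/+ Fast-5 regrouped, and kept its direction in the other 22 alternatives that gave it a value and its call in 21 of them, DESeq2 giving it no adjusted p. With fasted mice only, the block called 9 more genes, and it changed no other call of the fit of 19 mice. Ppard was 0.02 in female mice and -0.16 to 0.07 with mice left out. Cpt1a was -0.01 with upper quartile scaling, -0.05 with sex as a covariate, and -0.06 to 0.07 with mice left out. Sox9 was -0.30 to 0.05 and Tcf7 -0.09 to 0.01 with mice left out. Of the other list medians, regrouping NT+/+ Fast-5 gave -0.11 for stem cell markers, -0.05 for Wnt, 0.16 for gluconeogenesis, 0.10 for fat absorption, -0.09 for Paneth, 0.09 for interferon, 0.03 for clock, 0.19 for retinoid and -0.01 for ATF4 genes. Female mice only gave -0.06 for Paneth, -0.13 for goblet, 0.46 for interferon, 0.26 for tuft, 0.19 for retinoid, -0.08 for unfolded protein response, 0.01 for ATF4 and -0.09 for lymphocyte genes. The causes were not tested. Depth limits the NT receptors, at 0 counts, and what remained of Nts in NT-/- mice.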
